A study of Ovis aries with 4 samples.

Results

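The 7 genes described here are commonly used to recognise oligodendrocyte precursor cells: PDGFRA, CSPG4, VCAN, TNR, LHFPL3, MEGF11 and STK32A. They were taken by symbol from the gene lists of the count matrices, and all 7 were found among 26478 listed genes. LHFPL3 carries a symbol only in the list of the nuclei libraries, so its counts in the whole cells libraries were found by its Ensembl identifier, ENSOARG00020008095. The other identifiers are ENSOARG00020015079 for PDGFRA, ENSOARG00020021999 for CSPG4, ENSOARG00020021234 for VCAN, ENSOARG00020018083 for TNR, ENSOARG00020006928 for MEGF11 and ENSOARG00020022217 for STK32A.

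The tissue was frozen striatum of sheep aged 5 years, with no genotype or treatment named in the labels. Of the 4 droplet libraries, 2 came from whole cells released with papain and 2 from nuclei released by homogenisation in a detergent buffer. Within each kind, replicate 1 pooled sheep 1 and 2 and replicate 2 pooled sheep 3 and 4, by the sample titles. A library is therefore a pool of animals, and the spread between 2 libraries of a kind is the only replicate error.

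Oligodendrocyte precursors are dividing glia that persist in the adult brain and give rise to the myelinating oligodendrocytes. Platelet-derived growth factor acts on them through the receptor PDGFRA, and the proteoglycan CSPG4, also called NG2, is their classical surface marker. They lie in a matrix of lecticans such as versican (VCAN) and of tenascins such as tenascin-R (TNR). LHFPL3 encodes a protein of several membrane-spanning segments, MEGF11 a receptor-like protein with epidermal growth factor-like repeats, and STK32A a serine/threonine kinase.

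The libraries differed widely in content. The nuclei libraries held 70473292 and 51102420 unique molecular identifiers (UMIs, each marking 1 captured RNA molecule) under 8815 and 8723 barcodes, and the whole cells libraries 1115058 and 19241918 under 2162 and 32500. Mitochondrial genes took 88.7% and 86.9% of the UMIs of whole cells and 0.779% and 0.776% of those of nuclei. No whole cells barcode had at least 200 genes with at most 5% mitochondrial UMIs, against 8700 and 8388 barcodes of the nuclei libraries. Levels by cell class therefore come from nuclei alone, and whole cells enter as library sums. The nuclei libraries shared 29 barcodes, 0.329% and 0.332% of their barcodes.

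Usable nuclei were clustered without the 7 genes, so that their levels across clusters did not help to form them. After removal of called doublets 8310 and 8388 nuclei remained, since the doublet caller marked 390 nuclei in replicate 1 and 0 in replicate 2, where it did not work. One cluster passed 9 other precursor markers, SOX6, PTPRZ1, PCDH15, LUZP2, XYLT1, MMP16, BCAN, SEMA5A and GPR17, and is called precursor-like. From replicate 1 it took 591 nuclei (7.11%) and from replicate 2 793 (9.45%), with medians of 4642 and 3266 UMIs per nucleus and 4.83% and 6.03% of all UMIs. The 3 clusters called spiny neuron-like passed 3 to 7 markers of striatal projection neurons, but none of these was among their 10 leading genes, so their values are also given by cluster. The endothelial-like cluster of 41 and 27 nuclei passed 7 endothelial markers, but also 3 of mural cells (PDGFRB, ABCC9 and KCNJ8) and 3 of lymphocytes (CD3E, SKAP1 and THEMIS), so its markers were mixed. Clusters 4, 7, 8, 9 and 14 were left unnamed. Levels below are in CPM, a gene's share of all UMIs of the class on the usual CPM scale, with 95% exact Poisson intervals that cover counting error only. They rank classes for 1 gene and not genes against each other, because gene lengths were not used.

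Within nuclei, 6 of the 7 genes had their highest level in the precursor-like class in both libraries, and CSPG4 did so in replicate 2 only. Over all 13198 genes with enough UMIs, 2.31% were highest in that class in both libraries. A level at least 4-fold above every other class in both libraries was found for PDGFRA, TNR, LHFPL3, MEGF11 and STK32A, which is 5 of 7 beside 0.212% of all genes. That count held only with the 3 spiny neuron-like clusters pooled. With each of 14 clusters taken on its own, a comparison added after the values were seen, it was 3 of 7, PDGFRA, TNR and STK32A, beside 0.174% of all genes, while the same 6 genes were highest, beside 2.08%. The genes were chosen as precursor markers, so these counts describe the list and were not tested. Classes or clusters with under 20 nuclei in a library, which was cluster 7, were left out of the comparison.

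**Figure D1:**
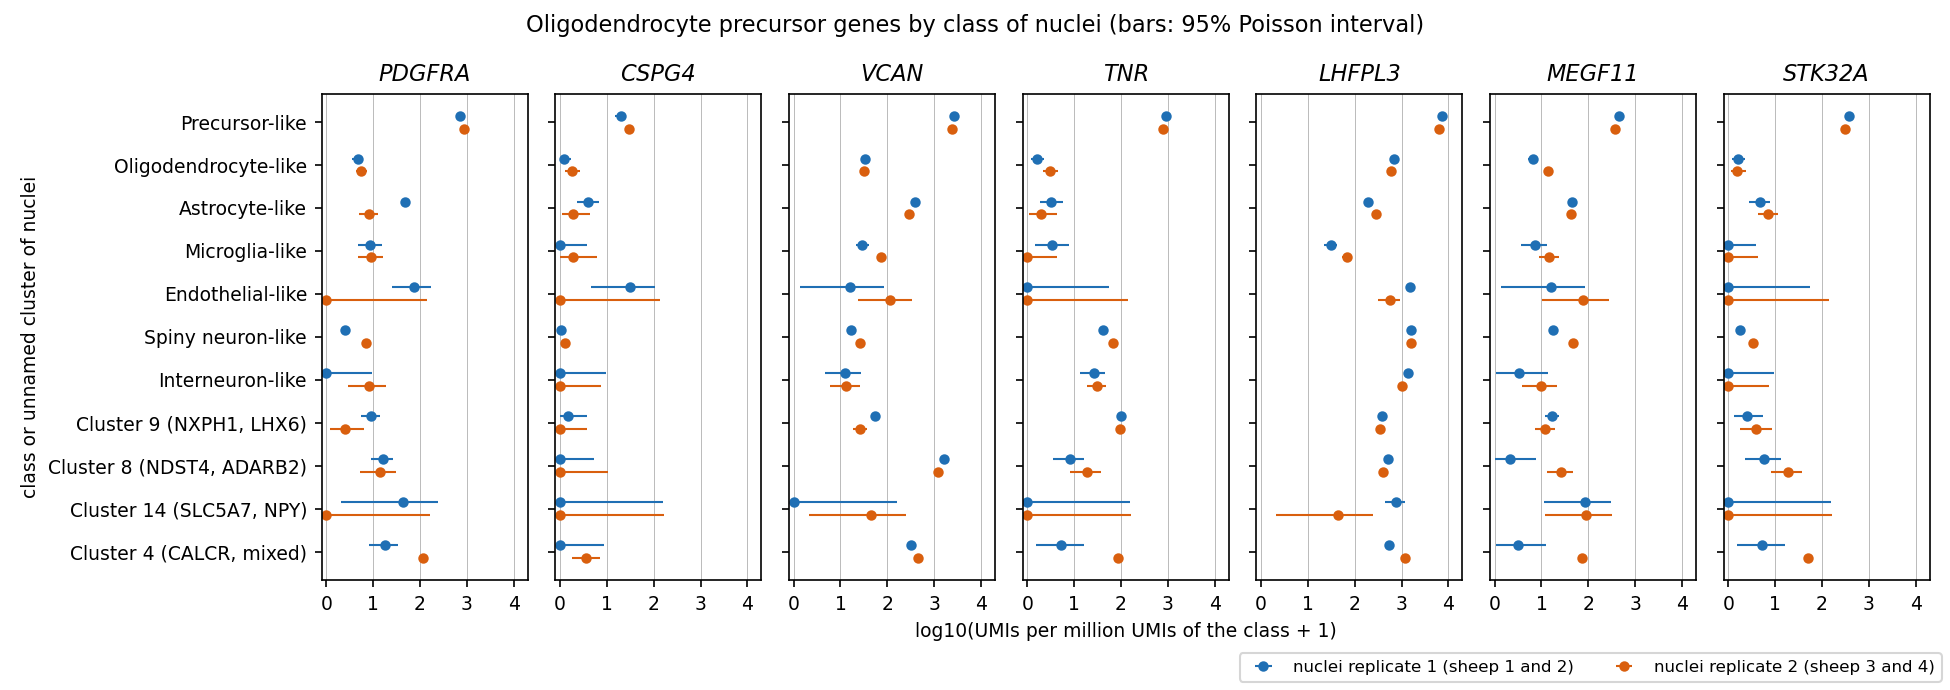
Level of each gene in the classes and unnamed clusters of nuclei, as log10(CPM + 1), with 1 point per nuclei library and bars for the 95% Poisson interval. The precursor-like class lies to the right of all others for PDGFRA, TNR, LHFPL3, MEGF11 and STK32A, while cluster 8 comes close for VCAN and the endothelial-like class of replicate 1 passes it for CSPG4.

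PDGFRA, the growth factor receptor, was counted at 729 CPM (699 to 759) in precursor-like nuclei of replicate 1 and at 862 CPM (829 to 895) in those of replicate 2. The class held 89.0% and 84.3% of the gene's UMIs in usable nuclei. The highest other level was 73.9 CPM in the endothelial-like class of replicate 1, from 5 UMIs, and 118 CPM in cluster 4 of replicate 2, from 227 UMIs. PDGFRA was thus 9.86-fold and 7.33-fold above its next class. Oligodendrocyte-like nuclei, the descendants of precursors in the lineage, had 3.72 and 4.63 CPM, and the order of the lower classes differed between the libraries.

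CSPG4 was the scarcest of the 7 in counts, with 60 and 89 UMIs in precursor-like nuclei, or 18.8 CPM (14.3 to 24.1) and 29.1 CPM (23.4 to 35.8). Those UMIs were 80.0% and 78.8% of all CSPG4 UMIs in usable nuclei. In replicate 1 the endothelial-like class stood higher, at 29.6 CPM, but this rested on 2 UMIs in 41 nuclei, and in replicate 2 that class of 27 nuclei had 0 UMIs. Elsewhere the level stayed at or below 2.99 CPM. The order of the precursor-like and endothelial-like classes for CSPG4 was therefore not resolved at this depth.

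VCAN, which encodes a large matrix proteoglycan, reached 2605 and 2425 CPM in precursor-like nuclei, which held 69.0% and 70.2% of its UMIs. Unnamed cluster 8, led by NDST4, ADARB2, FAM216B and PDZRN3, came next at 1587 and 1217 CPM in 486 and 274 nuclei. The precursor-like level was 1.64-fold and 1.99-fold above it, the smallest lead over the next class in both libraries among the 6 genes that led with the spiny neuron-like clusters pooled. Taken by cluster, MEGF11 had a smaller lead than VCAN in replicate 2. In cluster 8, 78.0% and 67.2% of nuclei had at least 1 VCAN UMI at median depths of 1334.5 and 1178.5 UMIs. The same cluster had 15.3 and 12.7 CPM of PDGFRA and 0 CSPG4 UMIs, so VCAN was high there while the 2 surface markers were low or not counted. Astrocyte-like nuclei had 388 and 283 CPM and cluster 4 had 326 and 452 CPM, so their order differed between the libraries.

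TNR, which encodes a tenascin of the brain matrix, stood at 907 and 779 CPM in precursor-like nuclei. The next class was unnamed cluster 9, led by NXPH1 and with LHX6 among its leading genes, at 99.5 and 91.9 CPM, 9.11-fold and 8.48-fold lower. Taken by cluster, spiny neuron-like cluster 1 had 99.1 and 167 CPM of TNR, level with cluster 9 in replicate 1 and above it in replicate 2, where the precursor-like lead over cluster 1 was 4.68-fold. Clusters 5 and 6 had 33.1 and 36.4 CPM in replicate 1 and 47.1 and 50.1 CPM in replicate 2. Oligodendrocyte-like nuclei had 0.604 and 2.12 CPM. Because spiny neuron-like nuclei held 68.0% and 64.2% of all UMIs, their 39.8 and 66.5 CPM still made up 36.4% and 44.3% of the TNR UMIs, beside 58.9% and 48.8% in the precursor-like class.

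LHFPL3 was counted most often, with 23546 and 19435 UMIs in precursor-like nuclei, or 7361 and 6359 CPM. It was also counted in spiny neuron-like nuclei, at 1558 and 1559 CPM, and in interneuron-like nuclei, at 1341 and 1047 CPM. Unnamed cluster 9 was lower, at 391 and 347 CPM. Endothelial-like nuclei had 1537 CPM in replicate 1, from 104 UMIs, and 563 CPM in replicate 2, and cluster 4 had 551 and 1210 CPM. The precursor-like level was 4.72-fold and 4.08-fold above the next class. Among the spiny neuron-like clusters LHFPL3 stood at 1378 and 1111 CPM in cluster 1, 1634 and 1699 CPM in cluster 5 and 1516 and 1562 CPM in cluster 6, and the precursor-like lead over cluster 5 was 4.505-fold and 3.74-fold. Yet that class held only 22.7% and 24.6% of the LHFPL3 UMIs, and spiny neuron-like nuclei 67.9% and 64.2%. Oligodendrocyte-like nuclei split by cluster, with 801 and 708 CPM in cluster 2 and 230 and 205 CPM in cluster 3. Microglia-like nuclei had 30.0 and 68.4 CPM.

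MEGF11 reached 443 and 369 CPM in precursor-like nuclei. With the spiny neuron-like clusters pooled, the next class was unnamed cluster 14, with 2 UMIs in each library, 5.21-fold and 4.20-fold lower. The precursor-like share of MEGF11 UMIs differed between the libraries, at 58.9% and 37.4%, with 31.8% and 50.1% in spiny neuron-like nuclei. Among the 3 spiny neuron-like clusters, cluster 1, led by CLSTN2 and KCNIP4 and with ALK among its leading genes, had 127 and 204 CPM, and clusters 5 and 6 had 6.55 and 8.84 CPM in replicate 1 and 17.7 and 18.6 CPM in replicate 2. The precursor-like level was only 3.49-fold and 1.81-fold above cluster 1. Few nuclei carried the counts of cluster 1. Of its 261 and 335 nuclei, 12 and 25 had at least 10 MEGF11 UMIs and held 88.5% and 90.1% of the cluster's MEGF11 UMIs, with up to 94 and 129 UMIs in 1 nucleus. The highest count in a precursor-like nucleus was 18 and 17.

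STK32A had 380 and 307 CPM in precursor-like nuclei, which held 95.2% and 82.5% of its UMIs. In replicate 1 the next class was cluster 8 at 4.71 CPM, from 4 UMIs, 80.6-fold lower. The size of that lead was not resolved. In that library 1 UMI was 14.8 CPM in endothelial-like nuclei and 42.5 CPM in cluster 14, so their 0 STK32A UMIs do not place them below cluster 8. In replicate 2 it was cluster 4 at 48.7 CPM, 6.30-fold lower. Oligodendrocyte-like nuclei had 0.604 and 0.529 CPM. No UMI was counted in microglia-like, endothelial-like or interneuron-like nuclei (the last 22 and 30 in number) of either library. In endothelial-like nuclei of replicate 2, 3 UMIs would be 113 CPM, so 0 UMIs there do not place that class below cluster 4.

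**Figure D2:**
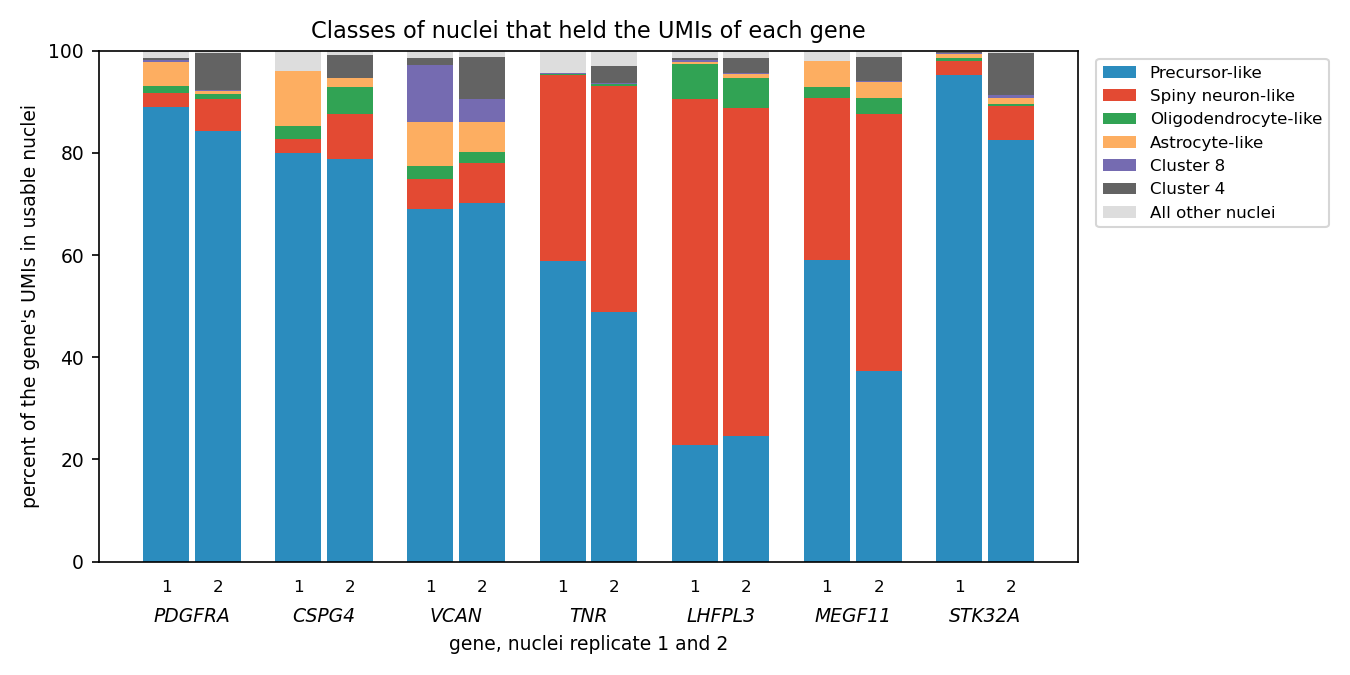
Percent of each gene's UMIs in usable nuclei that fell in each class, for nuclei replicates 1 and 2. Precursor-like nuclei held most of PDGFRA, CSPG4, VCAN and STK32A in both libraries, spiny neuron-like nuclei held most of LHFPL3, and TNR and MEGF11 were divided between these classes.

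Cluster 4 differed between the libraries for several of the genes. It had CALCR, VSIG4 and CSF1R, microglial genes, among its leading genes and also passed the oligodendrocyte marker CNP, and it held 92 nuclei in replicate 1 and 265 in replicate 2. PDGFRA stood there at 16.8 and 118 CPM, TNR at 4.20 and 86.5 CPM, MEGF11 at 2.101 and 70.9 CPM and STK32A at 4.20 and 48.7 CPM. In replicate 2, 53 of its 265 nuclei had a PDGFRA UMI. No doublet was removed from replicate 2, and the part of doublets in these levels was not tested.

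The genes were then counted nucleus by nucleus, after thinning each nucleus to 1000 UMIs so that depth was equal. This left out 1 and 27 precursor-like nuclei with fewer UMIs. LHFPL3 was detected in 99.3% (98.3 to 99.8, exact binomial 95% interval) and 99.0% (98.0 to 99.5) of precursor-like nuclei, and VCAN in 85.8% and 86.7%. PDGFRA was detected in 49.0% and 55.7%, TNR in 55.1% and 48.8%, MEGF11 in 32.9% and 29.1% and STK32A in 32.7% and 25.5%. CSPG4 was detected in 1.53% (0.701 to 2.88) and 3.39% (2.23 to 4.93) of precursor-like nuclei. Without thinning these CSPG4 shares were 9.14% and 10.1%, so at this depth most precursor-like nuclei had no CSPG4 UMI.

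Microglia-like nuclei, which should lack these genes, served as the background for detection. At 1000 UMIs, 3.11% and 6.12% of them had an LHFPL3 UMI and 3.26% and 1.19% a VCAN UMI, at medians of 1646 and 1366 UMIs before thinning. The other 5 genes were found in at most 1.53% of them, and CSPG4 and STK32A in 0 of 675 and 0 of 588. Every gene's share in precursor-like nuclei lay above its share in microglia-like nuclei of the same library. In spiny neuron-like nuclei LHFPL3 was detected in 72.5% and 71.9%, far above that background, and the other 6 genes in at most 5.90%.

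Nuclei with several of the genes at once lay mostly in the precursor-like class. At 1000 UMIs, 505 of 590 precursor-like nuclei of replicate 1 (85.6%) and 632 of 766 of replicate 2 (82.5%) had 3 or more of the 7 genes. In spiny neuron-like nuclei the shares were 0.288% and 0.852%, in astrocyte-like nuclei 0.584% and 0.337%, and in cluster 4 of replicate 2 8.85%. Of all nuclei with 3 or more of the genes, 98.2% (505 of 514) and 94.0% (632 of 672) were precursor-like. At full depth the same figures were 58.1% and 60.4%, since 24.2% and 25.7% of the deeper spiny neuron-like nuclei then had 3 or more of the genes.

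**Figure D3:**
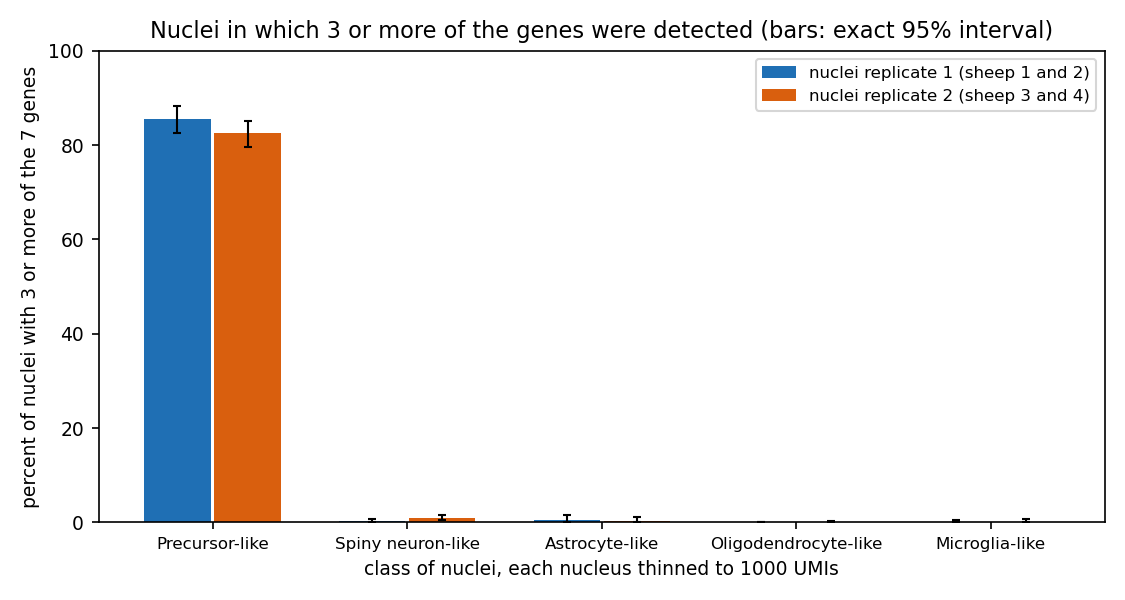
Percent of nuclei with 3 or more of the 7 genes after thinning to 1000 UMIs, by class and nuclei library, with exact binomial 95% intervals. Precursor-like nuclei stand at 85.6% and 82.5%, and the other 4 classes drawn at 0.852% or less.

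Within the precursor-like class the 2 libraries differed modestly. PDGFRA was 1.18-fold and CSPG4 1.55-fold higher in replicate 2, while TNR was 1.16-fold, LHFPL3 1.16-fold, MEGF11 1.20-fold and STK32A 1.24-fold higher in replicate 1. VCAN was 1.07-fold higher in replicate 1, but its order turned with doublets kept (0.990-fold) or with the 8% highest doublet scores removed (0.992-fold). With 1 library per animal pool and kind, these differences have no replicate check.

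The precursor-like nuclei divided into 3 sub-clusters. Replicate 1 gave 355 nuclei to sub-cluster 0 and 210 to sub-cluster 1, and replicate 2 gave 122 and 572, so their makeup followed the library. Sub-cluster 2 held 26 and 99 nuclei and was led by OPALIN and MOBP, genes of myelinating oligodendrocytes. MOBP stood there at 456 and 597 CPM. PDGFRA was at 585 and 489 CPM in this sub-cluster and at 739 and 953 CPM in the rest of the class. LHFPL3 was at 5578 and 3884 CPM beside 7486 and 6968 CPM, and VCAN at 1885 and 1688 CPM beside 2655 and 2606 CPM. The ratio of sub-cluster to rest lay between 0.710 and 1.02 for the 7 genes in replicate 1 and between 0.294 and 0.654 in replicate 2, with CSPG4 in replicate 1 as the single value above 1, from 4 UMIs. Median UMIs per nucleus were higher in sub-cluster 2, at 6982 and 5124, and whether its nuclei were doublets was not tested.

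**Figure D4:**
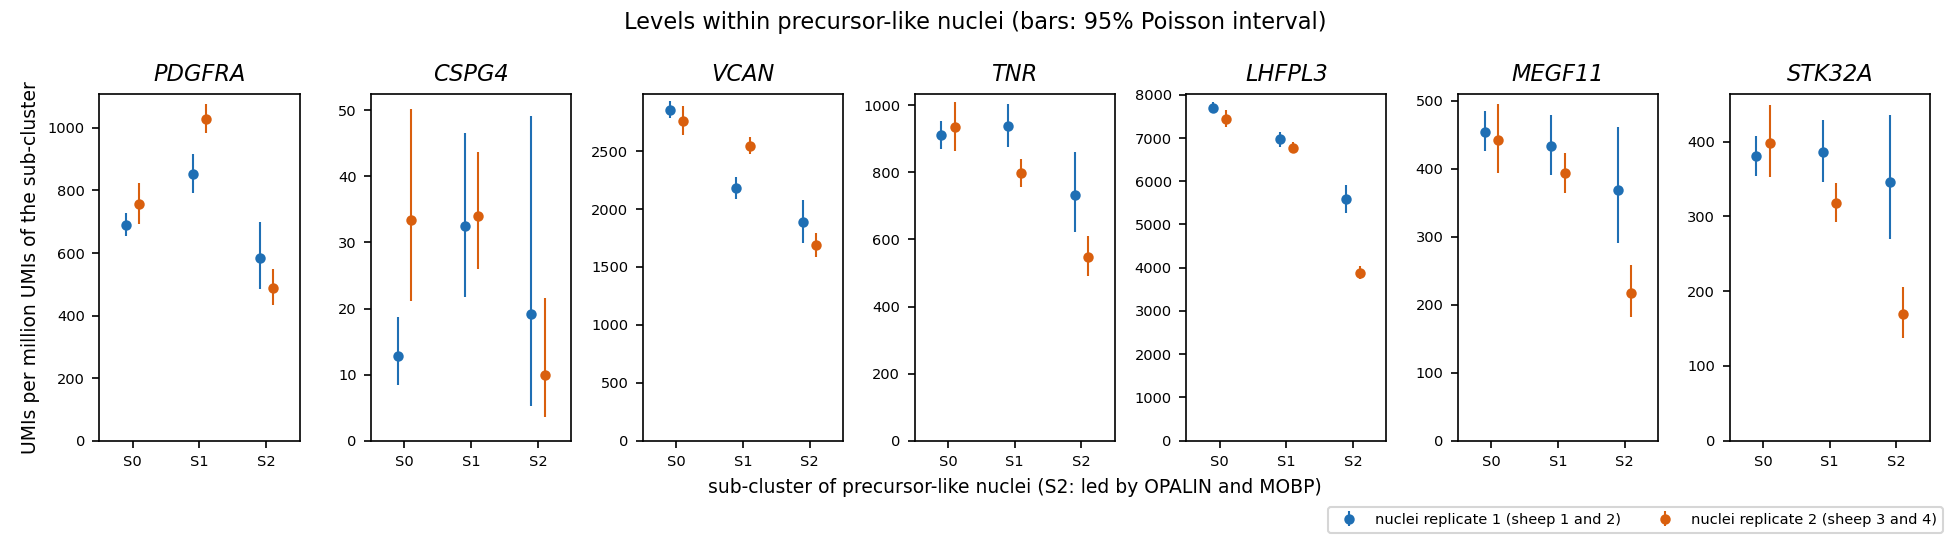
Level of each gene in the 3 sub-clusters of precursor-like nuclei (S0, S1 and S2), in CPM of the sub-cluster on linear axes, with 1 point per nuclei library and 95% Poisson intervals. Sub-cluster S2, led by OPALIN and MOBP, is lowest for 6 genes in both libraries and for CSPG4 in replicate 2.

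A finer division gave a group of 3 and 9 nuclei led by ENPP6, a gene of newly formed oligodendrocytes. In replicate 2 its 9 nuclei held 190 ENPP6 UMIs, 0 PDGFRA UMIs and 105 TNR UMIs, or 1682 CPM of TNR. In replicate 1 its 3 nuclei held 2 ENPP6, 6 PDGFRA and 43 TNR UMIs. These nuclei were singled out after their values were seen, and they are too few for a comparison.

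For each gene, the 3 genes with the most similar profile were sought among 9084 candidates, by Pearson's r of log2(CPM + 1) over 22 points, which are 11 classes in each of 2 libraries. The points share libraries, depth and class size, so r is a description. STK32A was closest to GFRA1 (r = 0.92), COL11A1 (0.86) and CPNE7 (0.85), and TNR to PCDH15 (0.91), CSMD3 (0.90) and SYT10 (0.90). VCAN was closest to FBN3 (0.85), COL11A1 (0.83) and KAT2B (0.81), and LHFPL3 to KAZN (0.83), ZNF804A (0.82) and TMEM132D (0.76). CSPG4 was closest to SEMA3D (0.85), AFAP1L2 (0.81) and ADAMTS9 (0.80), and PDGFRA to SEMA3D (0.78), RWDD3 (0.75) and CCDC80 (0.73). MEGF11 had the least similar partners, FGF10 (0.69), UST (0.69) and TES (0.67). Among the 7 genes themselves r ran from 0.20 for VCAN with LHFPL3 to 0.80 for PDGFRA with CSPG4.

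Related genes were followed in 5 lists, as descriptions, since many of them helped to form the clusters. Their counts stand beside the 2.31% of all genes that were highest in the precursor-like class in both libraries. Of 7 PDGF ligands and receptors, 1 was highest there in both, the ligand PDGFD at 330 and 337 CPM. That was only 1.30-fold and 1.04-fold above the highest other class, so in replicate 2 the levels were nearly equal. PDGFA, the ligand classically paired with PDGFRA, had 2.19 and 11.8 CPM there, PDGFC 106 and 93.3 CPM, and the co-receptor NRP1 43.1 and 41.2 CPM. PDGFRB, the receptor of mural cells, was highest in the endothelial-like class with its mixed markers, at 281 and 413 CPM.

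Of 9 lecticans, tenascins, link proteins and partners with enough UMIs, 5 were highest in the precursor-like class in both libraries: ACAN, BCAN, HAPLN1, PTPRZ1 and CNTN1. BCAN and PTPRZ1 are among the 9 markers that gave the class its name, so their high level there is no separate result. Being highest was not required of a naming marker. BCAN, the brain lectican, had 233 and 317 CPM, and PTPRZ1, a phosphatase receptor that binds matrix, 3644 and 3855 CPM. CNTN1, an adhesion protein that binds tenascin-R, had 716 and 800 CPM. HAPLN2, a link protein of nodes of Ranvier, was highest in oligodendrocyte-like nuclei at 77.7 and 72.0 CPM, with 1.56 and 4.58 CPM in the precursor-like class.

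Of 9 relatives of LHFPL3, MEGF11 and STK32A, 0 were highest in the precursor-like class in both libraries, which beside 2.31% of all genes says nothing particular about them. LHFPL6 had 297 and 306 CPM there and MEGF9 60.0 and 72.3 CPM. MEGF10 had 143 and 129 CPM there and was highest in microglia-like nuclei, at 838 and 938 CPM. STK32C had 6.88 and 9.82 CPM.

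Of 8 transcription factors of the lineage with enough UMIs, 0 were highest in that class in both libraries, again near the 2.31% of all genes. SOX6 had 3157 and 2973 CPM there and 6213 and 5112 CPM in interneuron-like nuclei, and SOX5 had 1574 and 1231 CPM. TCF7L2 had 329 and 308 CPM, and ST18 had 8.44 and 52.4 CPM beside 646 and 532 CPM in oligodendrocyte-like nuclei. OLIG1 and OLIG2, the defining factors of the lineage, had only 14 and 18 UMIs in precursor-like nuclei of replicate 1, and were too scarce to be counted with the 8.

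Among 7 genes of committed precursors, only GPR17 was highest in the precursor-like class in both libraries, at 15.3 and 47.8 CPM. It too is a marker that named the class, so its high level there is no separate result. FYN had 315 and 342 CPM there, ITPR2 875 and 898 CPM, CD9 66.0 and 84.4 CPM and SEMA4D 69.1 and 131 CPM.

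Nuclei were next compared with whole cells over library sums. In bulk sums, fewer cells of a type and less RNA per cell cannot be told apart. The counting program was Cell Ranger 7.0.0 for nuclei and 6.0.1 for whole cells. The gene lists also differed between kinds, since LHFPL3 carries a symbol only in that of nuclei. Kind, program and gene list therefore cannot be told apart, for LHFPL3 in particular. In CPM of the whole library, PDGFRA was at 1.79 and 6.60 in whole cells and at 42.8 and 61.2 in nuclei, and VCAN at 45.7 and 19.9 and at 196 and 208. TNR was at 4.48 and 1.92 in whole cells and 76.0 and 95.7 in nuclei. LHFPL3 was at 1575 and 1548 in nuclei (110962 and 79108 UMIs) but had 0 and 25 UMIs in whole cells. Nuclei gave 2649 and 3032 UMIs of MEGF11, against 0 and 11 from whole cells. For STK32A these were 1496 and 1137 against 1 and 5, and for CSPG4 88 and 113 against 0 and 0. On this scale the listed values of the 2 kinds did not overlap for the 7 genes. For CSPG4 this was not resolved in replicate 1 of whole cells, where 3 counts correspond to 2.69 CPM, above the 1.25 and 2.21 CPM of nuclei.

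Mitochondrial UMIs filled most of the whole cells libraries, and the test therefore used edgeR's trimmed mean of M-values (TMM) scaling. By its quasi-likelihood test with Benjamini-Hochberg adjustment over 15781 genes, 5 of the 7 genes were higher in nuclei, beside 29.8% of all genes tested, and 0 were higher in whole cells, beside 22.4%. The log2 fold change of nuclei over whole cells was 7.37 (SE 0.72, edgeR adjusted p = 1.11e-09) for LHFPL3 and 3.40 (SE 0.58, edgeR adjusted p = 1.11e-05) for MEGF11. STK32A rose by 3.05 (SE 0.66, edgeR adjusted p = 2.50e-04), on 6 UMIs in whole cells, and TNR by 2.14 (SE 0.49, edgeR adjusted p = 4.92e-04). CSPG4 passed at an edgeR adjusted p of 0.0474. With 0 UMIs in both whole cells libraries, and 3 counts over both as the floor, it was at least 1.30-fold higher in nuclei. Without whole cells replicate 2 no bound could be given for CSPG4, since the floor of 9.57 scaled CPM then lay above its 0.884 in nuclei.

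PDGFRA and VCAN did not pass. The log2 fold change was 0.17 (95% interval -0.72 to 1.06, edgeR adjusted p = 0.766) for PDGFRA and -0.21 (-1.19 to 0.76, edgeR adjusted p = 0.727) for VCAN. After scaling, PDGFRA stood at 4.34 and 21.0 CPM in whole cells and at 16.3 and 21.0 in nuclei, so the kinds overlapped. VCAN stood at 111 and 63.4 in whole cells and at 74.5 and 71.2 in nuclei, and nuclei lay within the range of whole cells.

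The result depended on the scaling. By library size alone all 7 genes passed as higher in nuclei, beside 79.4% of all genes, with log2 fold changes of 3.20 for PDGFRA and 2.78 for VCAN; that scaling moved the median of all genes by 3.06. Single libraries also decided calls by edgeR. Without whole cells replicate 2, PDGFRA passed at a log2 fold change of 2.0997 (adjusted p = 0.0301) and STK32A did not (adjusted p = 0.256), and without nuclei replicate 2 TNR did not pass (adjusted p = 0.0693). CSPG4 passed only by a narrow margin, and did not pass without whole cells replicate 2, nuclei replicate 1 or nuclei replicate 2 (adjusted p = 0.716, 0.0531 and 0.184), nor with the animal pool as a block (0.0695). LHFPL3 and MEGF11 passed in all 10 alternative fits, but the size of their difference rested on whole cells replicate 2. Without it whole cells held 0 UMIs of both, and with 3 counts in whole cells replicate 1 as the floor LHFPL3 was at least 87.4-fold and MEGF11 at least 2.61-fold higher in nuclei. Without that library the log2 fold change fell to 1.51 for TNR and to 1.85 for STK32A.

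**Figure D5:**
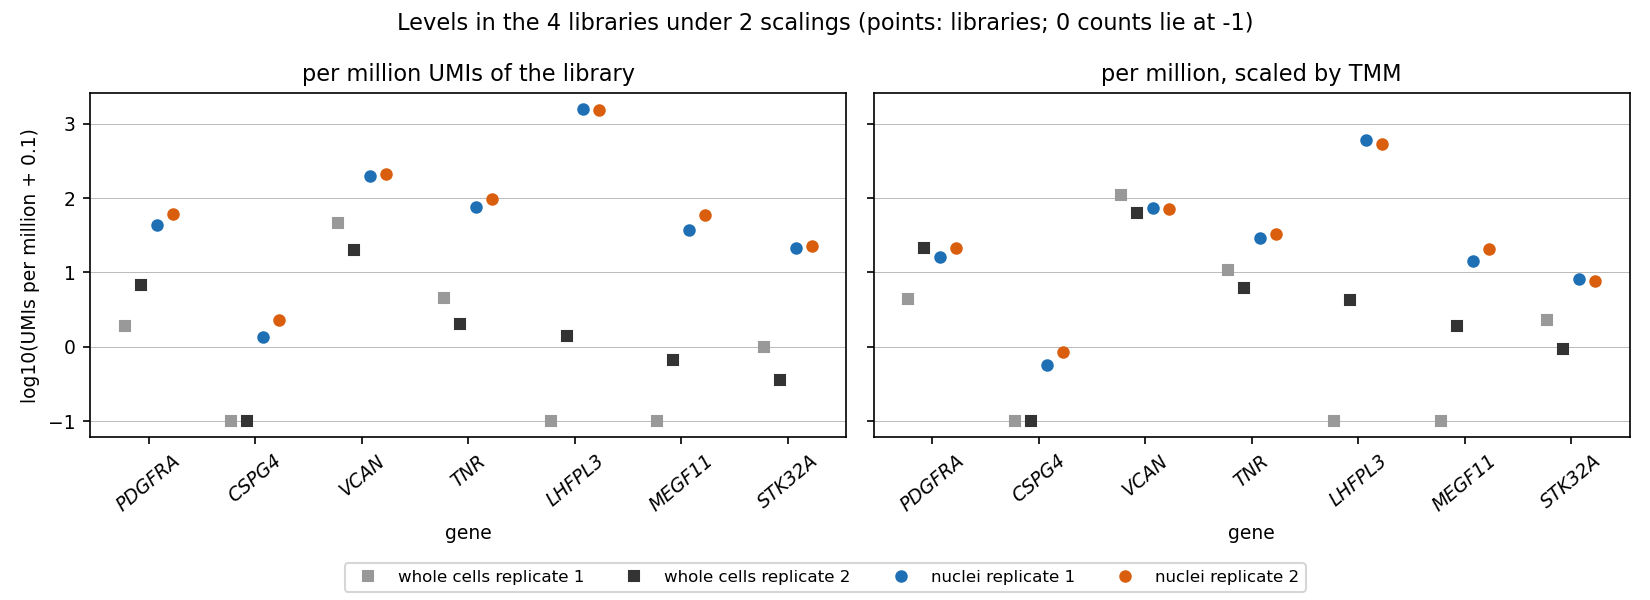
Level of each gene in the 4 libraries as log10(CPM + 0.1), with CPM of the whole library on the left and CPM scaled by TMM on the right, with 1 point per library. On the left nuclei lie above whole cells for all 7 genes, on a scale where edgeR called 79.4% of all genes higher in nuclei. For CSPG4, 0 UMIs in whole cells replicate 1 allow up to 2.69 CPM. On the right PDGFRA and VCAN overlap between the kinds.

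The related lists were read from the same edgeR fit, in which 29.8% of all genes were higher in nuclei and 22.4% lower. It called 7 of 9 relatives of LHFPL3, MEGF11 and STK32A higher in nuclei and 1 lower, STK32C at a log2 fold change of -2.14 (adjusted p = 4.52e-04). MEGF10 was higher by 3.53, LHFPL6 by 2.86 and MEGF9 by 2.56. The list's median was 2.86, beside 0.61 over all genes. Of 7 PDGF ligands and receptors 2 were higher in nuclei, PDGFC (4.68) and PDGFD (2.43), and PDGFA was lower (-1.31), with a list median of 1.06. Their share higher in nuclei was near that of all genes. Of 11 matrix genes 1 was higher and 1 lower, BCAN at -1.16, with a median of 0.08, and PTPRZ1 (0.80), CNTN1 (0.91) and HAPLN2 (1.21) did not pass.

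Of 14 lineage transcription factors tested, 4 were higher in nuclei, near the 29.8% of all genes, and 5 lower, beside 22.4%, with a median of -1.72. The 4 were SOX5 (4.40), SOX6 (3.81), TCF7L2 (1.73) and ST18 (1.59). Of 7 genes of committed precursors 4 were higher, beside 29.8%, FYN (1.29) and ITPR2 (1.23) among them, and CD9 was lower (-1.16), with a median of 1.23.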

How the data were processed

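The authors deposited 1 matrix of raw UMI counts per library. Per the file headers, Cell Ranger 6.0.1 made the counts of whole cells and 7.0.0 those of nuclei; the submitters' processing notes also name Cell Ranger 2.1.1 and STAR 2.7.2a. The genome build and the counting of introns are not given in the sources used here, so no coordinates or sequences are printed. For the second whole cells pool the protocol text and the titles name different animals (2 and 3, or 3 and 4), and the titles were followed.

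Mitochondrial genes were 35 consecutive identifiers, of which 11 carry a symbol and 24 were assigned by their place in that run. By the 11 alone, whole cells were 44.2% and 44.4% mitochondrial, and 10 and 1 of their barcodes would have been usable. The minimum for a usable barcode was 200 genes and the maximum mitochondrial share 5%. Doublets were called with Scrublet. Nuclei were clustered with scanpy 1.11.5 (2000 variable genes without the 7 members, 30 components, 15 neighbours, Leiden resolution 0.5). A cluster was named from at least 3 markers. A marker counted if its CPM was at least 2-fold the median of the other clusters, it was found in 10% of nuclei, and it reached 0.5 of its highest level in any cluster. These naming thresholds were set after the clusters were seen.

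Library sums were tested with edgeR 4.0.16 (TMM, filterByExpr, quasi-likelihood, adjusted p threshold 0.05), with DESeq2 1.42.0 as an alternative. Log2 fold changes are nuclei over whole cells. P-values measure the spread between 2 pools per kind. The members and lists were chosen with earlier results of these data known. All 7 members are named, with the 4 genes of most UMIs in each list and the 3 most similar genes per member; others named in the text (PDGFRB, OLIG1, OLIG2, ENPP6, GPR17, ACAN, HAPLN1, and the markers and leading genes of clusters) were chosen after their values were seen. Intervals and floors cover counting error only.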

Additional observations from a re-analysis of the deposited data

Results flagged for a closer look

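For PDGFRA and VCAN the sign of the difference between kinds was not the same in the 2 animal pools on the TMM scale, with PDGFRA near equal between kinds in the second pool. Set against whole cells, PDGFRA in nuclei had a log2 ratio of 1.91 in the pool of sheep 1 and 2, where whole cells held 2 UMIs, and -0.0031 in the pool of sheep 3 and 4. For VCAN it was -0.57 in the first pool and 0.17 in the second. With 1 library per pool and kind, the difference between pools was not tested. By library size alone both genes were higher in nuclei in both pools.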

How the results depend on the processing

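In every alternative fit of nuclei against whole cells that kept both libraries of each kind, LHFPL3 and MEGF11 passed. The fewest genes called in those fits were 4. The most were 7, by library size alone, beside 79.4% of all genes higher in nuclei. With 1 library left out a kind has no replicate and calls changed, so only fold changes are given here for those fits. By library size alone VCAN reversed to 2.78, and without whole cells replicate 1 to 0.32, while PDGFRA reversed to -0.056 without whole cells replicate 1 and to -0.05 without nuclei replicate 2. With 1 library left out the log2 fold change ran from -0.056 to 2.0997 for PDGFRA and from -0.67 to 0.32 for VCAN. In barcodes with at least 200 genes PDGFRA passed (log2 fold change 1.37, edgeR adjusted p = 0.0221) and CSPG4 did not (0.381). DESeq2 gave 4 calls, beside 23.5% of all genes higher in nuclei, and no adjusted p for CSPG4, which is therefore not counted as lost. With the replicate block 4 genes were called, beside 20.4% of all genes higher in nuclei. By the titles both kinds came from the same sheep in each pool, and the main fit left this pairing out. The correlation of same-pool deviations was -0.048 over 1791 genes, but with 2 pools it cannot decide whether pairing matters.

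The median share of a gene's UMIs in the precursor-like class, averaged over libraries, was 69.6%, and became 67.7% with doublets kept, 72.6% with the 8% highest doublet scores removed, 65.5% at resolution 1.0 and 63.2% without the sub-cluster led by OPALIN and MOBP, the last chosen after seeing the data. Without one nuclei replicate it ranged from 69.0% to 70.2%. The count of genes highest in the class was 6 or 7 in every clustering tried, with CSPG4 the exception where it was 6. With every cluster on its own, also chosen after seeing the data, 3 genes and not 5 were at least 4-fold above every other cluster. The median share of precursor-like nuclei with a UMI of a gene was 48.9% at 1000 UMIs, 29.1% at 500, 74.1% at 2000 and 86.5% unthinned, and the share with 3 or more genes 84.0%, 54.5%, 98.3% and 98.6%. These shares move with depth. Counts of 0 or 1 UMI limit CSPG4, LHFPL3, MEGF11 and STK32A in whole cells replicate 1.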
